A study of Caenorhabditis elegans with 2 samples.

Results

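The 505 sites described here are weaker promoter peaks of ELT-3 chromatin immunoprecipitation that carry a GATA motif. They come from 5659 peaks that the authors listed for both replicates pooled, in a list that includes background peaks. They were chosen by 3 conditions. The authors' reproducibility threshold had left the peak out, which left 4397 weaker peaks. Its summit lay in a promoter window, which ran 1000 bp up and 250 bp down from where a protein-coding transcript starts, which left 1617. The motif WGATAR, in which W is A or T and R is A or G, lay on either strand within 50 bp of the summit, which left 505. The motif condition kept 31.2% of the weaker promoter peaks, and the authors' threshold fell at rank 1262 of the pooled signal, so neither low signal nor the presence of a motif is a finding about these sites. The sites are set against 280 promoter peaks with the motif among the 1262 that passed the threshold, called thresholded peaks here, and against the 1112 weaker promoter peaks without the motif.

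The data are chromatin immunoprecipitation sequencing of ELT-3 in whole L1 larvae of Caenorhabditis elegans, in a single group with 2 biological replicates and without another condition. Both replicates were strain OP75, with the unc-119 allele ed3 on chromosome III and the integrated transgene wgIs75, from which ELT-3 carries GFP and FLAG at its C-terminus. The larvae were of both sexes and their age was not known. The labels name elt-3 as the antibody target and do not say whether tagged ELT-3 alone was recovered, and the larvae were not sorted, so a peak cannot be assigned to a cell type. Both elt-3 peaks in the promoter windows of that gene were thresholded, with signals of 151.0 and 75.8 in the authors' unit, and neither elt-3 nor unc-119 had a weaker GATA-motif peak.

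GATA factors are zinc finger transcription factors that recognise a short sequence around the letters GATA. In C. elegans, ELT-3 acts in the epidermis, the tissue that secretes the collagen cuticle, together with other GATA factors of that tissue, while ELT-2 is the main GATA factor of the intestine. A motif this short recurs throughout a genome, so a match near a summit is a description of the sequence and not proof of a bound site.

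The windows around the strongest of these sites show how the motif lies under the summits. Each window of 101 bases is centred on the summit, comes from the RefSeq WBcel235 genome (the build of the ce11 files) and is given on the + strand. Capitals mark each WGATAR match, which reads as its reverse complement where it lies on the other strand. The first 3 belong to olrn-1 (X:15542707-15542807), a gene of olfactory learning, to F37B12.1 (II:9029604-9029704) and to frm-2 (III:5981612-5981712), for a FERM-domain protein. They had 1, 1 and 2 matches.
olrn-1: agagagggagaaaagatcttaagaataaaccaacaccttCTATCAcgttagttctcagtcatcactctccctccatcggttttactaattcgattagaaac
F37B12.1: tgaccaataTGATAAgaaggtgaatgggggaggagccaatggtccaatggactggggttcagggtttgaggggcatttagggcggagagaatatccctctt
frm-2: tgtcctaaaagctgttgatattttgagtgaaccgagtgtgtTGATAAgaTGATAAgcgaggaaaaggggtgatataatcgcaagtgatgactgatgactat
The next 3 belong to imph-1 (III:4553027-4553127), for a protein of the IGF2 mRNA-binding family, to atf-4 (X:14810870-14810970), for a bZIP transcription factor of the stress response, and to metr-1 (II:10925686-10925786), for methionine synthase. The imph-1 window has 3 matches spread over its length, while those of atf-4 and metr-1 have 1 each, towards the right edge.
imph-1: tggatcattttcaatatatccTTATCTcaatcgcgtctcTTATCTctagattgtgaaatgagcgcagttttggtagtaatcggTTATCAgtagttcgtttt
atf-4: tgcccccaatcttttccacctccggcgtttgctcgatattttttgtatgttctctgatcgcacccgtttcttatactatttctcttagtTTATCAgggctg
metr-1: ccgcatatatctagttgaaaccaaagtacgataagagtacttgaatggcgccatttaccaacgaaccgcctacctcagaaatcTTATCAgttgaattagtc
At C15F1.1 (II:6989681-6989781) the matches overlap by 2 bases, and ras-2 (III:4740966-4741066), for a small GTPase of the Ras family, and pkg-2 (IV:8535115-8535215), for a cGMP-dependent protein kinase, have 1 match each.
C15F1.1: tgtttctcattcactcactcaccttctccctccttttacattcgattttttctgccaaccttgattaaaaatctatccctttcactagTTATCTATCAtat
ras-2: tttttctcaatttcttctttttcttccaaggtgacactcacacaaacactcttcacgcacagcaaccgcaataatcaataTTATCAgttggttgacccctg
pkg-2: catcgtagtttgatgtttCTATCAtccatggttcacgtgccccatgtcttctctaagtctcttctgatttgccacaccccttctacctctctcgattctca
Of the next 3, Y43F8B.2 (V:19533613-19533713) and Y70G10A.3 (III:10238542-10238642) have TGATAA on the + strand, and F18A11.2 (II:13031031-13031131) has AGATAG on the other strand.
Y43F8B.2: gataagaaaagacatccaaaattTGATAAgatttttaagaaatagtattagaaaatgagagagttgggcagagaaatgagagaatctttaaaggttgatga
Y70G10A.3: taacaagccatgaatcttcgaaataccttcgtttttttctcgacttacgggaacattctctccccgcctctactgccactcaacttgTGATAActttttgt
F18A11.2: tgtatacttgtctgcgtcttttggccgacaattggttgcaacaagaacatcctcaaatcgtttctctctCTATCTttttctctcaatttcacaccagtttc
The last 3 are the strongest windows among those with the most matches, 4 each. They lie at prx-5 (II:8704568-8704668), for the import receptor of peroxisomes, F47D12.9 (III:6303540-6303640) and T26C12.1 (IV:3258593-3258693), and at the last 2 of these, neighbouring matches share bases.
prx-5: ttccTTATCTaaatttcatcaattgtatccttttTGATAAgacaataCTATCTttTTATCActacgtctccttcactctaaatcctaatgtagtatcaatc
F47D12.9: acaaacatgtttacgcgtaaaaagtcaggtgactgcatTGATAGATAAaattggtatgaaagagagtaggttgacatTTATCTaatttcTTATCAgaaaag
T26C12.1: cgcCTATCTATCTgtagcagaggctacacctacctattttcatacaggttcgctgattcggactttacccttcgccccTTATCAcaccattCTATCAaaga

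The pooled signal of the 505 sites had a median of 30.04, with quartiles of 27.2 and 34.8 and a range from 24.5 to 42.9. All 505 were 256 bp wide. The thresholded promoter peaks with the motif had a median of 56.2 and the weaker promoter peaks without it 28.5. The −log10 q-value of the 505 sites ran from 0.0178 to 1.28, with a median of 0.249. Weak signal is the property the sites were selected on, and these values are given as a description.

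The threshold fell between sites of nearly the same signal. Just under it lay olrn-1 (42.88), srlf-1 (42.77) and F37B12.1 (42.47). Just over it lay nekl-2, for a NIMA-family kinase (43.08), let-607, for a bZIP factor (43.06), and T14B1.1 (43.01), each with 1 motif match. At the lower end of the list lay inx-17, for a gap junction protein (24.50), F54C9.7 (24.50) and F32D8.3 (24.48), and the first of these was listed in replicate 2 only, the last in replicate 1 only.

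Among the 20 strongest sites, 14 summits lay outside protein-coding genes, 4 in introns and 2 in exons, and 18 lay upstream of the nearest start. Beside those printed above they included twk-1, for a potassium channel of the TWK family (signal 41.9), the oxysterol-binding protein gene obr-4 (41.5), nhr-25 (41.2), ttx-7 (41.6), txt-5 (41.9), Y42A5A.1 (41.5) and nspe-5 (41.6). Of the 20 sites, 15 had 1 match, 4 had 2 and 1, at imph-1, had 3. The match nearest the summit was TGATAA in 10 of them, AGATAA in 4, TGATAG in 4 and AGATAG in 2. Both replicates listed 18 of the 20, and srlf-1 and C15F1.1 were in replicate 1 only.

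Most of the sites were listed in both replicates, but few ranked high in both. Replicate 1 listed 464 of them among its 25325 peaks and replicate 2 listed 447 among its 26500, in lists that include background peaks. Both listed 406 (80.4%), 58 were in replicate 1 only and 41 in replicate 2 only. This share was 98.6% in the thresholded promoter peaks with the motif and 74.5% in the weaker promoter peaks without it. It was 80.5% in the weaker peaks with the motif outside promoter windows. In replicate 1 their signals spanned 9.60 to 39.97 around a median of 16.8. In replicate 2 the median was 14.4 and the range was 8.27 to 37.68. None of the sites was among the 1262 strongest peaks of both replicates, and 94 were among those of 1 replicate. These counts were 4 and 156 for the 1112 weaker promoter peaks without the motif. For the 280 thresholded promoter peaks with it they were 155 and 111.

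Among the 5659 strongest peaks of each replicate, as many as the pooled list holds, 133 of the 505 sites (26.3%) appeared in both, against 263 of the 280 thresholded promoter peaks with the motif and 222 of the 1112 weaker promoter peaks without it. The thresholded list holds the 1262 strongest peaks of the pooled signal, which draws on both replicates. The first of these contrasts thus follows from the choice and was not tested. Over the 406 sites listed in both replicates, Spearman's rho between the replicate signals was -0.168, and on log2 signals Pearson's r was -0.186. The sites were chosen within a band of pooled signal, in which a site that is high in 1 replicate tends to be lower in the other. In the weaker promoter peaks without the motif, from nearly the same band, rho was -0.061 and r -0.050. In the weaker peaks with the motif outside promoter windows they were -0.140 and -0.058. The thresholded promoter peaks with the motif had 0.294 and 0.361. These values are descriptions, and the part of the choice in them was not tested.

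**Figure D1:**
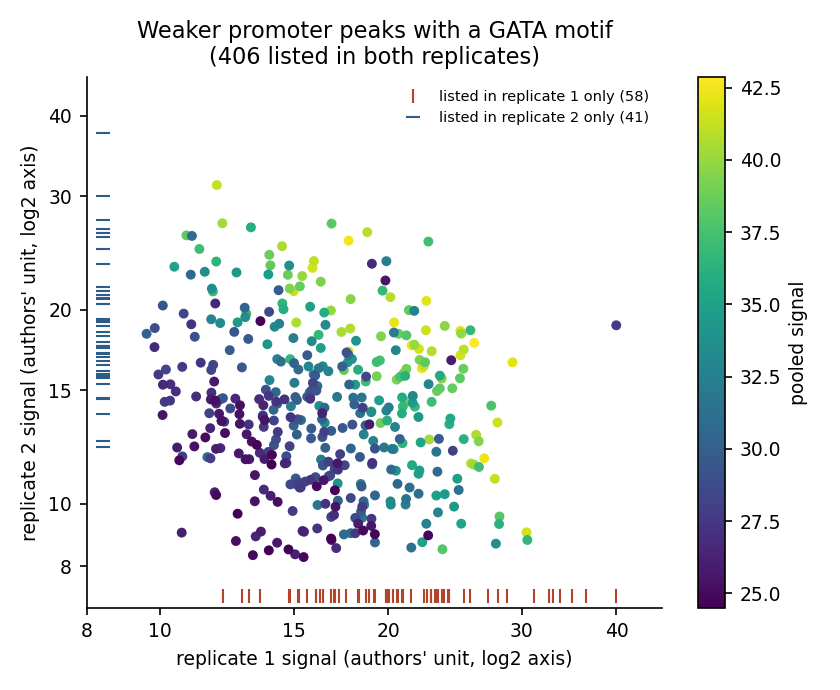
Signal in replicate 1 (x axis) and replicate 2 (y axis), in the authors' unit on log2 axes, for each weaker promoter peak with a GATA motif, coloured by pooled signal; ticks on the axes are sites listed in 1 replicate only. The 406 sites listed in both replicates form a broad cloud with no upward trend, and the 58 and 41 sites of a single replicate span much of the same range.

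The sites that ranked best in both replicates were those of tbc-6, for a Rab GTPase-activating protein of the TBC family (1479 in replicate 1 and 789 in replicate 2), ras-2 (1501 and 1335), C15F1.1 (331 and 1667), W07E11.1 (1285 and 1678) and wht-7, for an ABC transporter (1678 and 1451). C15F1.1 had 2 of the 505 sites, and both were matched to the same replicate 1 peak, so its rank of 331 is not independent evidence for each. Their pooled signals of 42.1 and 27.6 differ although they share that peak, and the stronger was not listed in replicate 2.

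Other strong sites rested mainly on 1 replicate. At ttx-7, for an inositol monophosphatase of thermotaxis, the peak ranked 720 in replicate 1 and 20546 in replicate 2. At nhr-25, for a nuclear receptor of epidermal development and moulting, the ranks were 896 and 11389. A separate thresholded peak also lay in the promoter window of nhr-25. At sma-1, for the heavy beta-spectrin of epithelial cells, the order was turned round, with 6619 in replicate 1 and 822 in replicate 2. The site at srlf-1 ranked 573 in replicate 1 and was not listed in replicate 2.

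The GATA motif was less frequent at weaker than at thresholded promoter peaks, yet more frequent at their summits than beside them. It was present at 505 of 1617 weaker promoter peaks, 31.2% (95% Wilson interval 29.02 to 33.5%), and at 280 of 622 thresholded promoter peaks, 45.02% (41.1 to 48.9%), a difference of -13.8 percentage points (two-sided Fisher's exact p = 1.46e-09). Replicate 1 alone gave 30.3% and 43.99%, and replicate 2 alone 29.5% and 43.8%. Windows of the same length centred 500 bp to the left and to the right of the weaker summits held the motif in 22.4% and 21.2%. In 385 weaker promoter peaks the summit window held the motif while the left window lacked it, and 243 had it on the left alone (exact binomial p = 1.61e-08). Against the right window these counts were 388 and 225 (exact binomial p = 4.66e-11). Over all 260908 windows of 101 bases that tile the promoter windows of the genome, 21.1% held the motif.

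Peaks are the units of these tests, so the p-values do not speak of variation between larvae. Base composition moved with the classes. The median GC content of the windows was 37.6% in the 505 sites and 39.6% in the thresholded promoter peaks with the motif. Without the motif it was 41.6% in the weaker and 49.5% in the thresholded promoter peaks, and it was 34.7% in the tiles. The part of GC content in the motif shares was not tested.

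**Figure D2:**
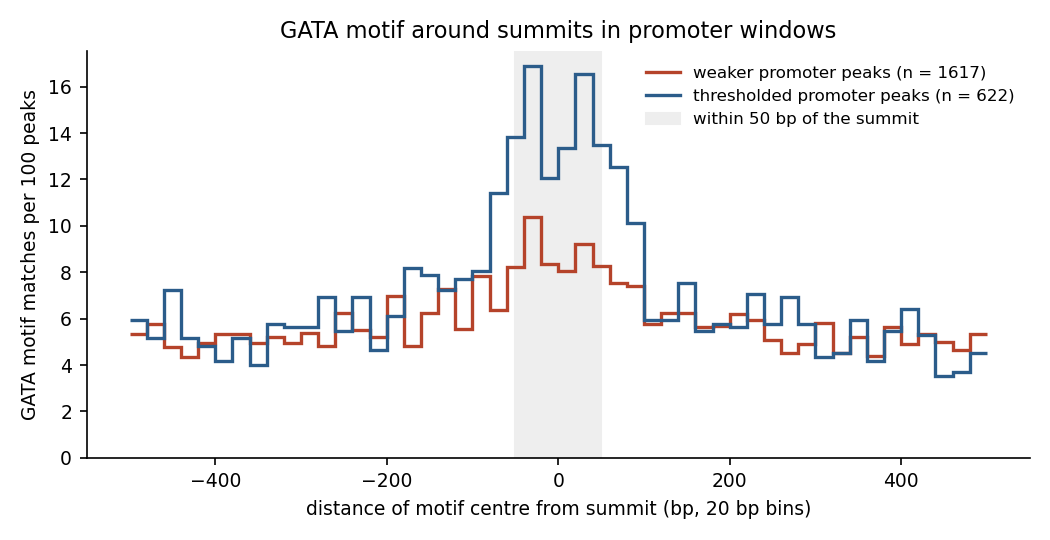
GATA motif matches per 100 peaks (y axis) by distance of the motif centre from the summit (x axis, 20 bp bins), for weaker and thresholded promoter peaks, with the 50 bp on each side of the summit shaded. The weaker peaks reach 10.4 per 100 peaks in the bin from -40 to -20 bp, against 16.9 for the thresholded peaks in the same bin.

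The weaker peaks did not carry the motif evenly. With the 1617 weaker promoter peaks cut into 5 groups by pooled signal, the share with the motif was 23.8% (19.5 to 28.8%) in the weakest group, then 24.5%, 31.6% and 38.0%, and 38.3% (33.1 to 43.7%) in the strongest. In the weakest group 20.7% of windows held the motif on the left flank and 20.7% on the right, both within the interval of the share at the summit. In the strongest group the flanks held it in 18.8% and 19.8%, both below that interval. The 5 groups of thresholded promoter peaks, from 39.5% to 48.8%, showed no such order. Of the 505 sites, 156 came from the 2 weakest groups, where the share at the summit was within 3.1 percentage points of both flanks. No test was made within groups.

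**Figure D3:**
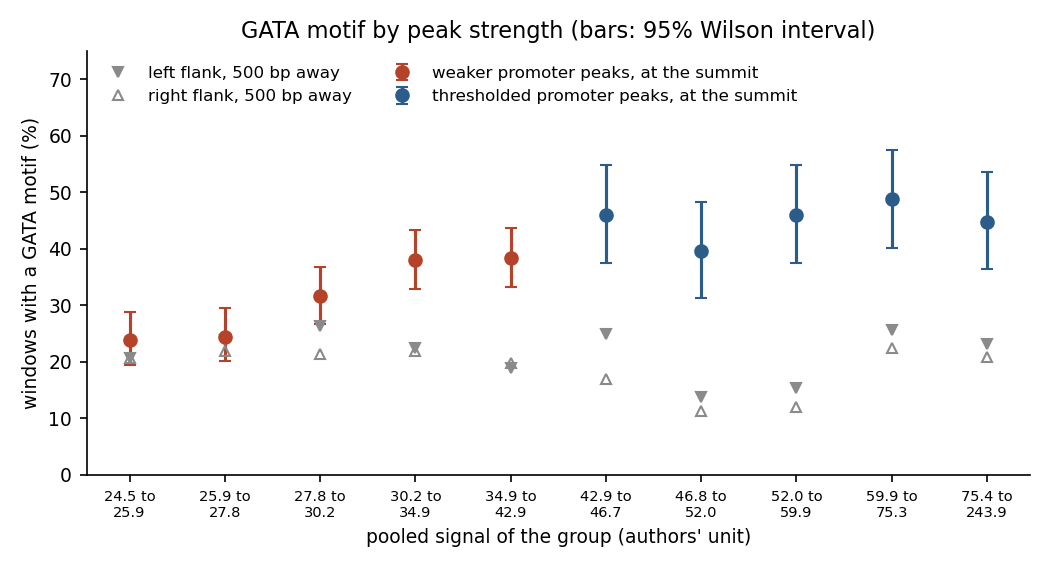
Share of windows with a GATA motif (y axis) in 10 groups of promoter peaks from the lowest to the highest pooled signal (x axis), at the summit with 95% Wilson intervals and in windows 500 bp to either side. The weaker peaks run from 23.8% in the weakest group to 38.3% in the strongest, while the flanks of these groups stay between 18.8% and 26.3%.

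Within the peaks that carry the motif, the weaker ones less often had the form TGATAA and less often had several matches. TGATAA or its reverse complement TTATCA was found in the summit window of 267 of the 505 sites, 52.9%, against 185 of the 280 thresholded promoter peaks with the motif, 66.1% (Fisher's exact test, adjusted p = 0.00426 over 11 tests). Without replicate 1 the difference was -6.82 percentage points and missed the threshold (exact adjusted p = 0.215), as it did with a promoter window of 500 bp upstream and 100 bp downstream (exact adjusted p = 0.0862). At least 2 matches lay in 145 sites, 28.7%, against 113 thresholded peaks, 40.4% (exact adjusted p = 0.00619). This held without either replicate and was lost with a motif window of 25 bp (exact adjusted p = 0.0705), with TGATAA alone (0.0832), with the narrower promoter window (0.0879) and in the stronger part of the weaker peaks (0.154).

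The 505 windows held 687 matches, of which 314 (45.7%) were TGATAA, 161 AGATAA, 113 AGATAG and 99 TGATAG, each counted on both strands. In the thresholded promoter peaks with the motif, TGATAA made up 53.95% of 443 matches. The shares per match were not tested. The longer TGATAAG, sought on both strands and an extension of TGATAA, was present in 25.9% of the sites, in 34.6% of the thresholded peaks and in 2.15% of all promoter tiles. Both of the first shares come from windows chosen for WGATAR and the last does not.

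Of the 505 sites, 360 had 1 match, 117 had 2, 19 had 3 and 9 had 4. The closest pair of matches was at most 10 bp apart, centre to centre, in 46 of the 145 sites with several. Sites with 4 matches included prx-5 (signal 39.2), F47D12.9 (38.2), rml-1 (36.2), a site in the window of C52E2.2 (33.3) and the F-box gene fbxa-50 (24.6). The last of these ranked 10903 in replicate 1 and 16956 in replicate 2, so many matches did not go with a high rank there.

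The motif centre nearest the summit was a median of 22.5 bp away, the same as in the thresholded promoter peaks with the motif. It was within 10 bp of the summit in 127 sites, 25.1%, against 88 thresholded peaks, 31.4% (exact adjusted p = 0.121). The difference was -6.28 percentage points, and it was 1.54 without replicate 1 (exact adjusted p = 0.849). At frm-2 it was 1.5 bp from the summit and at imph-1 8.5 bp, whereas at ras-2 it was 32.5 bp and at atf-4 41.5 bp away, as the capitals in their windows show.

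Other short motifs were counted in the same windows on both strands, with no test. The repeat GAGAGA, which can share bases with AGATAA and AGATAG, was present in 20.99% of the 505 sites, in 28.2% of the thresholded promoter peaks with the motif, in 13.1% of the weaker promoter peaks without it and in 5.94% of all promoter tiles. The E-box CACGTG was present in 5.35% of the sites, in 9.29% of the thresholded peaks with the motif, in 2.70% of the weaker peaks without it and in 1.75% of the tiles. Among these windows, both thus had their highest share in the thresholded peaks with the motif and their lowest in the tiles. The thresholded promoter peaks without the motif were not counted. TATAAA, the core of a TATA box, was present in 10.3%, 7.14%, 7.10% and 12.2% of these windows in the same order.

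Most summits lay upstream of the start, as the promoter window of 1000 bp up and 250 bp down sets in large part, and most lay outside protein-coding genes. Relative to the nearest protein-coding start, the median summit position was -211 bp, negative being upstream, with quartiles of -539 and -45 bp, and 118 sites lay within 100 bp of a start. The summit was upstream of the nearest start in 414 of 505 sites, 82.0%, against 87.5% of the thresholded promoter peaks with the motif (exact adjusted p = 0.118) and 74.9% of the weaker promoter peaks without it (exact adjusted p = 0.00633). The second difference did not pass without replicate 1 (2.70 percentage points, exact adjusted p = 0.498) and in 5 other alternatives, and the first passed in each replicate alone (exact adjusted p = 0.0336 in replicate 1 and 0.0362 in replicate 2). Summits lay outside protein-coding genes in 282 sites (55.8%), in introns in 127 (25.1%) and in exons in 96 (19.01%, Wilson interval 15.8 to 22.7%). Exons held 8.93% of the thresholded promoter peaks with the motif and 30.3% of the weaker promoter peaks without it.

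Fewer of the sites than of the weaker promoter peaks without the motif lay in the promoter windows of 2 or more genes, 54 of 505 (10.7%) against 181 of 1112 (16.3%; Fisher's exact test, adjusted p = 0.00812). This did not pass with TGATAA alone (exact adjusted p = 0.543) or with any GATA (0.327). The thresholded promoter peaks with the motif had 13.2% and did not differ past the threshold (exact adjusted p = 0.425). Another thresholded peak lay within 1000 bp of 28 sites (5.54%), against 7.14% of the thresholded peaks with the motif and 4.59% of the weaker peaks without it (exact adjusted p = 0.501 for each), and none of the sites overlapped a thresholded peak.

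X carried 108 of the sites, 21.4%, against 18.2% of the thresholded promoter peaks with the motif (exact adjusted p = 0.425) and 20.5% of the weaker promoter peaks without it (exact adjusted p = 0.692). Per 1000 protein-coding genes X had 39.5 sites and the autosomes from 19.8 on IV to 28.1 on I. Per Mb, X had 6.10 and II 6.09, the autosomes otherwise ranging from 3.72 on IV to 5.37 on I.

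**Figure D4:**
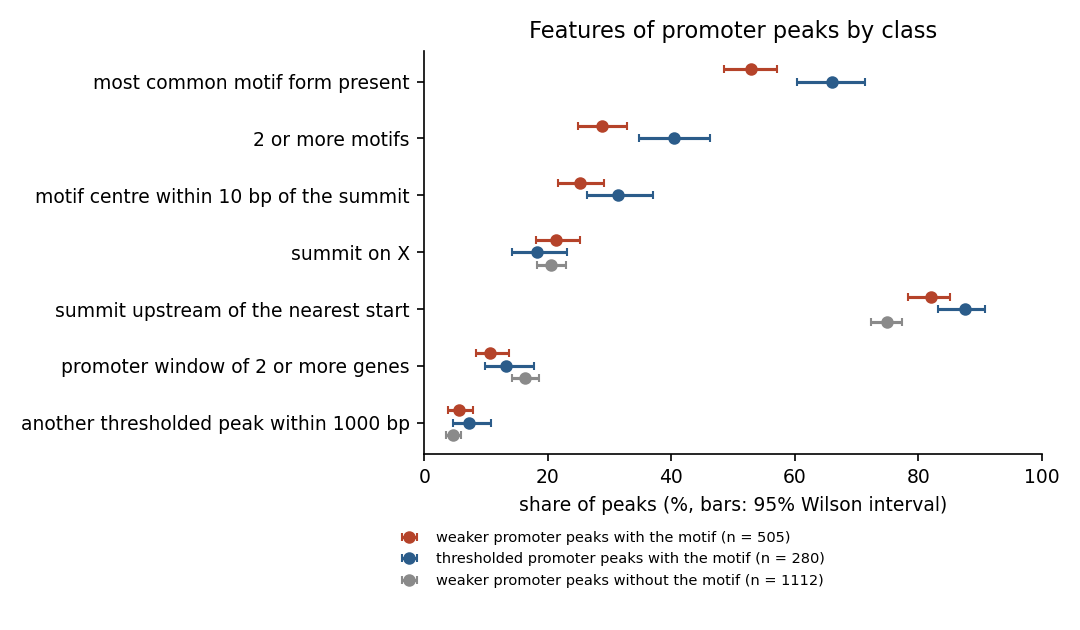
Share of peaks (x axis, with 95% Wilson intervals) that have each of 7 features, most of them read within the same motif and promoter windows that chose the sites, for the 505 weaker promoter peaks with the motif, the 280 thresholded promoter peaks with the motif and, for 4 features, the 1112 weaker promoter peaks without it. The most common motif form is present in 52.9% of the weaker and 66.1% of the thresholded peaks with the motif.

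At least 1 of the sites lay in the promoter window of 549 of 19973 protein-coding genes, or 2.75%. A single window held the summit for 451 sites, 2 gene windows did for 51 and 3 or more for 3. Of the 549 genes, 26 (4.74%) also had a thresholded peak in their window, against 3.76% of all protein-coding genes, and 11 had 2 or more of the sites. The protein-coding genes outside the 549 had none. Counts over gene lists are given below against 2.75%, with Wilson intervals that cover counting error only and without a test. At this level, without adjustment over the 28 lists, the intervals of 7 lists lay above 2.75% and those of 2 below it. The 7 were epidermal transcription factors, collagens, junction and attachment genes, antimicrobial and osmotic response genes, nuclear hormone receptors, UDP-glucuronosyltransferases and fatty acid enzymes, and the counts for transcription factors and for junction genes rest on 2 genes each.

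Collagens are the largest of the cuticle and epidermis lists. Of 176 collagen genes 15 had a site, 8.52% (5.23 to 13.6%). The strongest was at col-166 (signal 37.6), whose ranks were 917 in replicate 1 and 4404 in replicate 2. It was followed by col-93 (37.1), col-120 (35.8) and col-145 (35.5), and 2 of the 15 genes also had a thresholded peak. The pair col-159 and col-160 had the same signal of 29.9 because 1 site lies in both windows. Replicate 1 alone gave 13 collagen genes and replicate 2 alone 9.

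Of 18 epidermal transcription factor genes 2 had a site, and each replicate alone gave 1. These were nhr-25 (signal 41.2, with 2 matches) and egl-27, for a protein of the MTA family that acts in chromatin (36.2). Of the 2, only nhr-25 also had a thresholded peak, and egl-27 ranked 863 in replicate 1 and 18817 in replicate 2. Among 11 GATA factor genes end-1, which specifies the endoderm of the embryo, had a weak site 12 bp upstream of its start (25.9). Junction and attachment genes had 2 of 19, sma-1 (40.6) and the intermediate filament gene ifb-1 (31.1), while replicate 1 alone gave 1 gene and replicate 2 alone 3. Moulting and cuticle assembly genes had 2 of 30. These were noah-1, for a zona pellucida domain protein of the apical matrix (30.8, with 3 matches), and che-14, for a Dispatched-related protein of apical secretion (26.9). Cuticlins had 1 of 35, cut-3 (30.04), and hedgehog-related proteins had 2 of 59, hog-1 (35.5, listed in replicate 2 only) and grd-7 (27.5, listed in replicate 1 only).

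Antimicrobial and osmotic response genes had 5 of 35, 14.3% (6.26 to 29.4%). Among them were both genes for the glycerol-3-phosphate dehydrogenases that make the osmolyte glycerol, gpdh-2 (34.5) and gpdh-1 (29.98). The others were dcar-1, for a receptor upstream of epidermal peptide expression (30.4), the MAP kinase kinase kinase gene nsy-1 (27.2) and the peptide gene nlp-32 (26.9). The windows of dcar-1 and gpdh-1 held 3 and 2 matches. Each replicate alone gave 3 genes of this list, so its count is small and moved with the replicate.

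Nuclear hormone receptors, ligand-regulated transcription factors that form a large family in the worm, had 15 of 274, 5.47% (3.35 to 8.83%). After nhr-25 the strongest were nhr-104 (39.3), nhr-79 (38.96) and nhr-49, a regulator of fatty acid metabolism (35.8). Replicate 1 alone gave 12 and replicate 2 alone 15. Over the alternatives the count ran from 3 with TGATAA alone to 24 with any GATA. In those settings 297 and 978 protein-coding genes in all had a site. Fatty acid enzymes and binding proteins had 6 of 68, 8.82% (4.11 to 17.9%). The strongest was fat-6, for a stearoyl-CoA desaturase (38.4), which was listed in replicate 2 only and also had a thresholded peak. It was followed by acdh-7, for an acyl-CoA dehydrogenase (30.4), and the acyl-CoA synthetase genes acs-11 (29.4) and acs-14 (28.3). Replicate 1 alone gave 6 genes of this list and replicate 2 alone 3. The count for fatty acid genes ran from 1 with a motif window of 25 bp to 11 with 100 bp. In these settings 283 and 869 protein-coding genes in all had a site.

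UDP-glucuronosyltransferases, which conjugate small molecules for excretion, had 6 of 67, 8.96% (4.17 to 18.2%), with ugt-19 (39.4), ugt-49 (39.4), ugt-7 (36.5, with 3 matches) and ugt-50 (31.02) the strongest. Cytochromes P450 had 2 of 74, cyp-13A10 (29.2) and cyp-33E2 (27.8), and glutathione transferases and antioxidant enzymes 1 of 65, gstk-1 (32.9). The P450 share, 2.70% (0.744 to 9.33%), did not differ from 2.75% beyond counting error, and replicate 1 alone gave 3 genes and replicate 2 alone 5.

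Ribosomal protein genes had 2 of 79, rpl-14 (40.98) and rla-1 (25.1), 2.53% (0.697 to 8.77%). The rla-1 site lay nearer the start of Y37E3.8. With sites counted for the nearest start alone, 1 ribosomal protein gene had a site. Aminoacyl-tRNA synthetases had 1 of 31, cars-1 (38.8), and heat shock proteins 1 of 22, the BiP gene hsp-3 (33.2), which also had a thresholded peak. The hsp-3 site lay nearer the start of C15H9.5. Proteasome subunits (0 of 33), V-ATPase subunits (0 of 21) and histones (0 of 81) had none, with upper Wilson limits of 10.4%, 15.5% and 4.53%, so for each of these lists a share of 2.75% could not be told from 0. Replicate 1 alone gave 2 histone genes.

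Large families with many tandem genes lay below 2.75% in part. Chemoreceptors had 6 of 1291, 0.465% (0.213 to 1.01%), with srw-145 (31.2), srh-2 (30.6), srr-4 (26.9) and srh-282 (25.3) the strongest. The srh-2 site lay nearer the start of icl-1, and the srh-282 site nearer that of sma-10. With sites counted for the nearest start alone, 4 chemoreceptor genes had a site. Of 395 F-box and MATH/BATH genes 4 had a site, 1.01% (0.394 to 2.57%), with fbxa-35 (38.4) and bath-36 (34.04) the strongest, and each replicate alone gave 7. C-type lectins had 5 of 240, 2.08% (0.893 to 4.78%), of which clec-22 and clec-31 shared a site (27.1). Replicate 1 alone gave 10 chemoreceptor genes and replicate 2 alone 7.

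Markers of other tissues had few of the sites in number, from short lists. Body wall muscle had 2 of 26, the troponin T gene mup-2 (30.3) and unc-87, for a calponin-related protein (27.5). Pharynx had 1 of 23, the lysozyme gene lys-8 (26.6), and intestine 1 of 30, fat-6, which is also in the fatty acid list. Each replicate alone gave 0 muscle and 0 pharynx genes. Neuron (0 of 30) and germline markers (0 of 27) had none, with upper limits of 11.4% and 12.5%. Neuropeptides and insulins had 3 of 141, nlp-8 (31.3), ins-2 (29.3) and nlp-32, which is also in the antimicrobial list. In lists of this size a share of 2.75% would also give few genes or none.

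**Figure D5:**
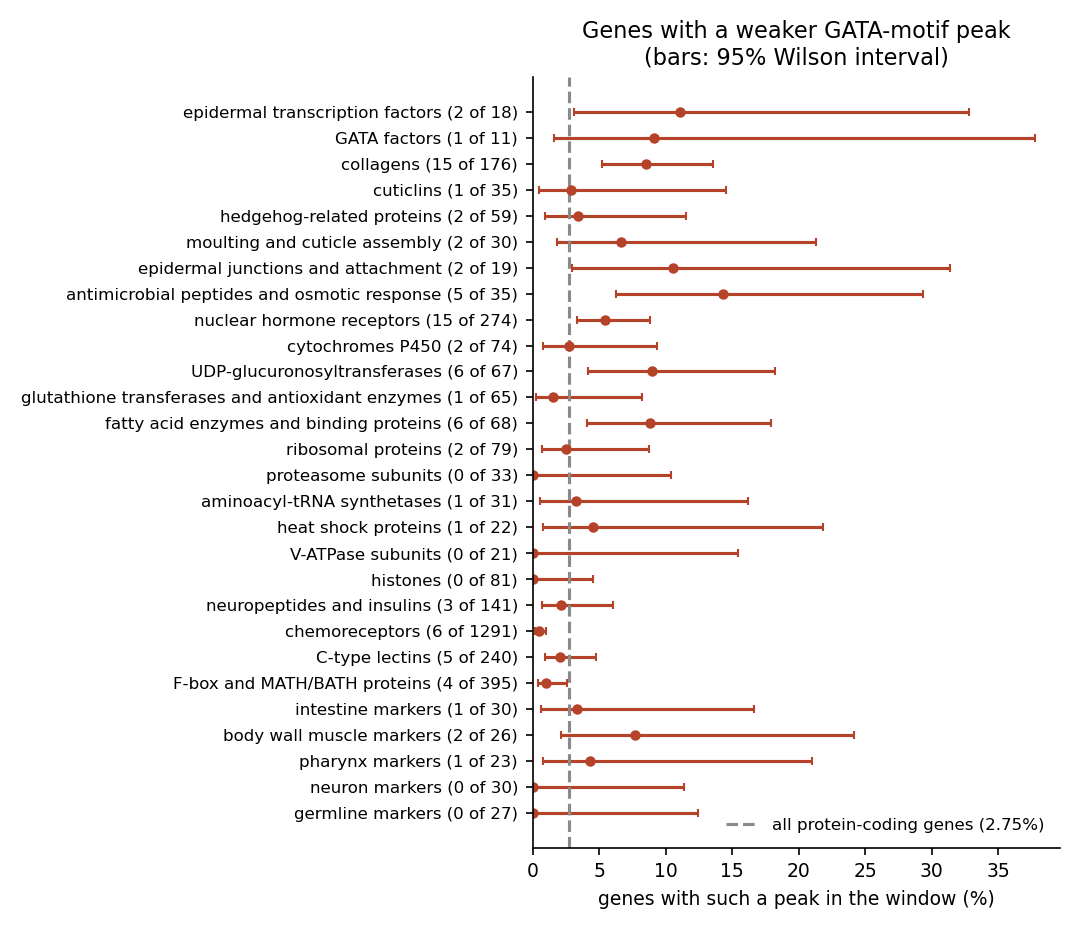
Share of the genes of each of 28 lists with at least 1 of the 505 sites in the promoter window (x axis, points with 95% Wilson intervals), with the number of genes in the labels and the share of all protein-coding genes as a dashed line. The intervals of 7 lists, among them collagens (8.52%) and nuclear hormone receptors (5.47%), lie to the right of the line at 2.75%, and those of chemoreceptors (0.465%) and F-box and MATH/BATH proteins (1.01%) to its left.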

How the data were processed

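The ELT-3 peaks were taken from the lists the authors deposited for each replicate and for both pooled. Per the file lists that accompany the samples, peaks and background were called against control alignments and the pooled list was thresholded on the irreproducible discovery rate. Which aligner and caller were used is not given in the sources used here. Every peak carries a signal that the authors deposited without stating its scale, the −log10 of a q-value that the authors deposited per list, and a summit position. Signals served for description, ranking and filtering within 1 list. Read depth is unknown, and intervals cover counting error only. Positions are 1-based in ce11 (WBcel235), and starts and exons come from Ensembl release 115. The authors' ce10 lists were not used here.

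The members, the gene lists and the tests were chosen with earlier results of these data known. A replicate's value at a site is that of its strongest peak overlapping by at least 1 bp. A replicate alone means its 1262 strongest peaks in place of the thresholded list and the next ones, up to 5659 in all, in place of the weaker peaks. The labels call the replicates biological and say nothing of separate cultures. Motif shares were compared by two-sided Fisher's exact tests and, for summit against flank, exact binomial tests on the peaks that differed. A family of 11 class comparisons by Fisher's exact test was Benjamini-Hochberg adjusted at a threshold of 0.05, and 95% Wilson intervals are given for shares. The 28 gene lists have counts only, over genes whose window holds a summit, and a summit between neighbouring genes counts for each.

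Genes named are the nearest starts of the 20 strongest sites, up to 4 genes of each list with the strongest site, the 5 sites with the best lower rank over both replicates, 5 of the 9 sites tied at 4 matches (the first by position), the 3 peaks on either side of the threshold, and elt-3 and unc-119. The 3 weakest sites and the pair col-159 and col-160 were named after their values were seen. The sequences come from the 12 strongest windows and the 3 strongest with 4 matches among 295 windows that hold no annotated exon and lie on chromosomes II to V or X. Alternatives were other motif windows, motifs, promoter windows, overlap rules, distances, flanks, the stronger part of the weaker peaks and each replicate alone. Tests ran in scipy 1.17.1 and statsmodels 0.14.6 under Python 3.11.15, with numpy 2.4.6, pandas 2.3.3 and, for figures, matplotlib 3.10.9. The motif search, the promoter window and Fisher's exact test were tried on simulated data, and the other procedures were not.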

Additional observations from a re-analysis of the deposited data

How the results depend on the processing

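The lower motif share of weaker than of thresholded promoter peaks (-16.9 to -6.89 percentage points) and the higher share at weaker summits than on the left (4.51 to 14.004) and right flank (4.89 to 15.2) kept their direction and passed in every alternative run. The number of sites was 263 with a motif window of 25 bp, 808 with 100 bp, 267 with TGATAA alone, 892 with any GATA, 321 with the promoter window of 500 bp upstream to 100 bp downstream and 330 in the stronger part of the weaker peaks. The genes with a site then numbered 283, 869, 297, 978, 336 and 357, and 861 with the window of 2000 bp upstream to 500 bp downstream. These counts follow from the rules. The replicates alone shared fewer sites: of the 505, 220 overlapped a site chosen in replicate 1 alone and 187 one in replicate 2 alone.

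Against the thresholded promoter peaks with the motif, the difference in TGATAA was -11.2 points with the narrower promoter window, which did not pass, and -12.4 to -6.82 with a replicate left out. For 2 or more matches it was -9.53 (motif window of 25 bp), -9.84 (TGATAA alone), -10.1 (narrower promoter window) and -8.24 (stronger part), none of which passed. Differences that passed only in alternatives were those in a motif centre within 10 bp (-12.8 and -7.44 with motif windows of 25 and 100 bp, -6.73 with the wider promoter window, but 1.54 without replicate 1, -2.79 without replicate 2 and 0.467 within 20 bp, none of which passed), in upstream summits (-8.76 with 100 bp, -10.98 with any GATA, -7.80 with the wider promoter window, -7.90 to -7.38 with a replicate left out), in windows of 2 or more genes (-5.89 with any GATA) and in a thresholded peak nearby (-9.75 within 2000 bp).

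Against the weaker promoter peaks without the motif, the difference in upstream summits did not pass with TGATAA alone (6.77), any GATA (0.777), the narrower promoter window (4.07), the stronger part (3.92) or the larger overlap with a peak of each replicate (5.37), and was 2.70 to 7.37 with a replicate left out. That in windows of 2 or more genes did not pass with TGATAA alone (-3.05) or any GATA (-2.41). The causes were not tested. Fewer peaks enter the narrower settings. No paired analysis was possible because the series has 1 group. The lists give no reads, so depth limits cannot be computed. Counts of ribosomal protein and chemoreceptor genes moved by over 1.5 times in 8 of 13 alternatives each, and those of the other lists in 0 to 6.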

Other observations

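Where a site had a single match, the match lay on the strand opposite to the nearest gene in 217 of 360 sites, 60.3% (Wilson interval 55.1 to 65.2%), against 62.3% of 167 such thresholded promoter peaks (54.7 to 69.3%) and 55.2% of promoter tiles taken from 1 start a gene. These shares were not tested.

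The sequence TTTCAG, which resembles a 3' splice site, was sought as well: 6.73% of the 505 sites held it, against 2.86% of the thresholded promoter peaks with the motif, 10.6% of the weaker promoter peaks without it and 19.8% of all promoter tiles. The exon share of the same classes of peaks, 19.01%, 8.93% and 30.3%, ran in the same order. These shares were not tested. The forkhead core GTAAACA was at 2.18%, 1.43%, 2.16% and 1.26% of these windows, and the AP-1 site TGACTCA at 0.990%, 0.357%, 1.35% and 1.00%.

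Matches were densest a little to either side of the summit. In weaker promoter peaks the bins from -40 to -20 bp and from 20 to 40 bp held 10.4 and 9.21 matches per 100 peaks, and those on either side of the summit 8.35 and 8.04. In thresholded promoter peaks the same bins held 16.9 and 16.6, and 12.1 and 13.3. Of the 505 sites, 16 had another of them within 1000 bp.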
